A study of Mus musculus with 86 samples.

Results

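Hepatocyte zonation was followed through 10 genes with a known position in the liver lobule. Glul, Oat, Cyp2e1, Cyp1a2 and Slc1a2 mark hepatocytes around the central vein (pericentral), and Hal, Sds, Gls2, Cdh1 and Ass1 mark those near the portal tract (periportal). They were chosen by name, and all 10 were found among the 31054 genes of the liver count files and the 38277 genes of the liver FPKM table. RNA came from whole mouse liver in 2 experiments on MERTK, a kinase receptor through which macrophages take up dead cells. Livers with the genotype label Wild type or Mertk knockout were compared after bile duct ligation (BDL) or sham surgery, with 4 libraries in each of those 4 groups (the knockout experiment). In the inhibitor experiment all mice were labelled wild type and were injected with UNC569, a small-molecule MERTK inhibitor, or with DMSO, its solvent. That experiment has 3 sham DMSO, 3 sham UNC569 and 6 ligated DMSO columns, and 4 ligated UNC569 columns for 6 labelled samples. Strain, age, dose, the time after ligation, and the cells in which Mertk was deleted are not given in the sources used here. No label says that libraries of a group came from separate animals, so p-values measure the spread between these libraries, which may be partly technical.

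The liver lobule is fed with blood at the portal tracts and drained at the central vein, and hepatocytes along that path divide the work. Periportal cells take up ammonia and amino acids for the urea cycle and for glucose synthesis, while pericentral cells capture what ammonia is left as glutamine and carry much of the cytochrome P450 system. Wnt signals from the central vein keep the pericentral programme on through beta-catenin and TCF/LEF factors, and Glul, Cyp2e1 and Cyp1a2 are well known to depend on it. Bile duct ligation stops bile outflow, injures the portal side of the lobule, and makes bile ducts multiply.

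Promoter sequence is shown for 3 pericentral genes that fell in all 4 injury comparisons below, and for Hal, a periportal gene that did not pass in any, so that the TCF/LEF core motif can be read in both zones. The bases come from RefSeq (GRCm38.p6), run 5′ to 3′ on the gene's strand, end at the base before the RefSeq or GENCODE start of the gene, whichever comes first, and carry the motif CTTTGA or its reverse complement TCAAAG in capitals.
Glul, chr1:153899679-153899928, plus strand: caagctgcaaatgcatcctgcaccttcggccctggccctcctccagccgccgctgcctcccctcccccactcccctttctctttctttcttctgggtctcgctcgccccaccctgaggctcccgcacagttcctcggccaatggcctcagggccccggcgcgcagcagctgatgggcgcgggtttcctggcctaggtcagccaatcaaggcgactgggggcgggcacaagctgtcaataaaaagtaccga
Cyp2e1, chr7:140763569-140763738, plus strand: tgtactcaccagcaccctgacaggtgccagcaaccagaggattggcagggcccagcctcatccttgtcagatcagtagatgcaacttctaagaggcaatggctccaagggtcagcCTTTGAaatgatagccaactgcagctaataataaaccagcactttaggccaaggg
Cyp1a2, chr9:57683704-57683905, minus strand: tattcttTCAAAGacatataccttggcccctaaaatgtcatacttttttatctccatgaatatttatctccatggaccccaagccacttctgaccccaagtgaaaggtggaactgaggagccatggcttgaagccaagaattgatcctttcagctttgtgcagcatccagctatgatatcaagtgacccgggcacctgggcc
Hal, chr10:93488518-93488767, plus strand: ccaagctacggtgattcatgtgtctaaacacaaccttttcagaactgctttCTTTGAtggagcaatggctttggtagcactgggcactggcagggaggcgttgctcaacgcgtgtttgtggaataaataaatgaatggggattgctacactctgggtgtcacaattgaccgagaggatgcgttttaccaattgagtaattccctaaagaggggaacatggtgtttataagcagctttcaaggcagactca
RefSeq promoters were matched for 7 of the 10 genes, all but Sds, Gls2 and Cdh1. In the 250 bases before the RefSeq start, the motif on either strand stood 135 bases before the start of Cyp2e1, 243 bases before that of Cyp1a2, 206 and 77 bases before that of Slc1a2, whose RefSeq window lies wholly inside the GENCODE gene, downstream of its start, and 199 bases before that of Hal. These letters were not in the windows of Glul, Oat or Ass1. Of 32851 mouse promoters of the same length, 13.8% held the motif. A match is a run of letters, not a measured binding site.

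In GRCm38 with GENCODE release M21 the pericentral genes are Glul (ENSMUSG00000026473) at chr1:153899944-153909723 on the plus strand, Oat (ENSMUSG00000030934) at chr7:132557478-132576398 on the minus strand, Cyp2e1 (ENSMUSG00000025479) at chr7:140763739-140774987 on the plus strand, Cyp1a2 (ENSMUSG00000032310) at chr9:57676937-57683703 on the minus strand and Slc1a2 (ENSMUSG00000005089) at chr2:102658659-102790784 on the plus strand. The periportal genes are Hal (ENSMUSG00000020017) at chr10:93488768-93519304 on the plus strand, Sds (ENSMUSG00000029597) at chr5:120476526-120483932 on the plus strand, Gls2 (ENSMUSG00000044005) at chr10:128194457-128210004 on the plus strand, Cdh1 (ENSMUSG00000000303) at chr8:106603351-106670246 on the plus strand and Ass1 (ENSMUSG00000076441) at chr2:31470207-31520672 on the plus strand. Each value below from the count files sums the reads over the exons of a gene. How reads were assigned to genes for the FPKM values is not given in the sources used here.

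The 16 count libraries held 14500094 to 23352846 reads in genes, and levels from them are given as CPM, the reads of a gene scaled to a common library size with TMM factors. Depth behind the FPKM values is unknown. Mertk, the targeted gene, was at 10.5 to 18.1 CPM in sham wild-type libraries and 10.8 to 20.5 CPM in sham libraries labelled knockout, so the ranges overlapped (log2 difference 0.14, edgeR adjusted p = 1). In ligated liver it was at 21.3 to 28.4 CPM in wild type and 6.95 to 18.8 CPM under the knockout label (log2 difference -0.97, edgeR adjusted p = 0.0614). The count covers the whole gene and does not show which exons a deletion would remove. Hepatocyte markers that were not assigned to a zone here, called unzoned below, were abundant in every library. Alb, albumin, was at 34839 to 91842 CPM and 3447 to 13109 FPKM, and Hnf4a, a hepatocyte transcription factor, at 306 CPM or more. Whether these markers are even across the lobule was not tested. The 4 ligated knockout-label libraries were the least alike, with mean rank correlations of 0.898 to 0.930 within their group against 0.934 to 0.962 in ligated wild-type and 0.980 to 0.988 in sham groups. Of these, libraries 1 and 3, each listed in the submitters' notes with 1 bad fastq file, had the highest unzoned hepatocyte marker sums of all 16, and library 3 the lowest correlation. Fitted results of the 10 genes in that group are also given without libraries 1 and 3. Those of other single genes and of cell type markers are given with all 4 libraries only.

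In sham DMSO liver the order by mean FPKM was Cyp2e1 (2989 ± 757, SD, n = 3), Glul (728 ± 217), Cyp1a2 (719 ± 66.4), Oat (333 ± 65.2), Ass1 (242 ± 25.4), Gls2 (194 ± 4.72), Sds (111 ± 43.2), Hal (86.7 ± 5.21), Slc1a2 (32.3 ± 4.30) and Cdh1 (17.2 ± 2.03). The ranges of Glul and Cyp1a2 overlapped, as did those of Sds and Hal, and the other neighbours in this order were separate. In ligated DMSO liver the order became Cyp2e1, Ass1, Sds, Glul, Cyp1a2, Gls2, Oat, Hal, Cdh1 and Slc1a2. There every neighbouring pair overlapped except Cdh1 and Slc1a2. In sham UNC569 liver Ass1 (289 ± 59.2 FPKM, n = 3) stood above Oat (272 ± 35.5 FPKM), with overlapping ranges, so that order differed between the sham groups. With DMSO, Ass1 moved from rank 5 to rank 2 and Sds from rank 7 to rank 3, while Oat moved from rank 4 to rank 7.

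After bile duct ligation in wild-type liver 3 of the 5 pericentral genes fell. Of the 5 periportal genes 0 fell, too few genes to show that the zone was spared, and 4 of 20 further periportal genes fell. Glul, Cyp2e1 and Cyp1a2 fell and Sds rose, where 12.8% of 13492 tested genes fell and 16.3% rose. In those same 3 pericentral genes all 4 ligated libraries lay below all 4 sham libraries, as was so for 16.8% of the genes tested. The median log2 change was -1.33 over the 5 pericentral genes and 0.25 over the 5 periportal genes, beside 0.03 over all genes tested. In bulk liver, fewer cells of a type and less RNA per cell cannot be told apart.

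Glul encodes glutamine synthetase, which fixes ammonia in the last rim of hepatocytes around the central vein. It stood at 684, 762, 795 and 747 CPM in sham wild-type libraries 1 to 4 and at 184, 317, 324 and 365 CPM in the ligated ones. Every ligated library lay far below every sham library, and the means, 747 ± 46.5 and 297 ± 78.6 CPM (SD, n = 4 each), differed 2.51-fold. The log2 change was -1.33 ± 0.35 (SE; edgeR adjusted p = 0.0106), and it stayed past the threshold in all 16 fits that left out 1 library.

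Oat, ornithine aminotransferase, works beside glutamine synthetase in the same cells. It did not follow Glul in this experiment: sham libraries held 270.2, 668, 719 and 668 CPM and ligated ones 506, 612, 305 and 442 CPM. The groups overlapped, and sham library 1 was the lowest of the 8 (log2 -0.32, 95% interval -1.29 to 0.66, edgeR adjusted p = 0.632). Slc1a2, a glutamate transporter of pericentral hepatocytes and astrocytes, was at 97.6, 92.6, 103 and 124 CPM in sham and 29.8, 93.5, 37.1 and 96.2 CPM in ligated libraries. Ligated libraries 1 and 3 were low and libraries 2 and 4 lay within the sham range (log2 -0.70, interval -1.54 to 0.14, adjusted p = 0.196).

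The P450 enzymes had the largest falls of the 10 genes. Cyp2e1, which oxidises ethanol and paracetamol, went from 5716, 4587, 5515 and 6887 CPM in sham to 1727, 1885, 878 and 1619 CPM in ligated libraries. Its change was 3.72-fold (log2 -1.89 ± 0.31, edgeR adjusted p = 5.57e-04). Cyp1a2, which oxidises caffeine and many drugs, went from 534, 485, 739 and 615 CPM to 69.3, 38.9, 94.0 and 83.3 CPM. At 8.32-fold (log2 -3.06 ± 0.73, adjusted p = 0.00591) Cyp1a2 changed most. Both calls held in all 16 omissions.

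Among the periportal genes of wild-type liver, ligated library 3 was the lowest for 4 of 5 and set much of the spread. Sds, serine dehydratase, turns serine into pyruvate for glucose synthesis. It was at 87.4, 45.5, 62.1 and 55.8 CPM in sham and at 233, 233, 22.8 and 408 CPM in ligated libraries, so that 3 of 4 ligated libraries exceeded every sham library and library 3 fell under all of them. Its rise (log2 1.84 ± 0.65, edgeR adjusted p = 0.0449) lay close to the threshold and was lost in 12 of the 16 omissions, with adjusted p up to 0.147. Those were the omissions of each sham library of both labels, of ligated wild-type libraries 1, 2 and 4, and of ligated knockout-label library 2. It was also lost without the libraries with bad fastq files (0.158) and with the replicate number as a block (0.0821).

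Hal, histidine ammonia-lyase, starts histidine breakdown, and Gls2, the liver glutaminase, releases ammonia for the urea cycle. Hal was at 444, 456, 537 and 361 CPM in sham and 468, 480.2, 79.0 and 207 CPM in ligated libraries (log2 -0.54, interval -1.54 to 0.45). Gls2 was at 388, 319.9, 359.7 and 379 CPM in sham and 341, 285, 91.4 and 242 CPM in ligated libraries (log2 -0.59, interval -1.42 to 0.23). For both genes ligated library 3 was the lowest and the groups overlapped, with adjusted p of 0.399 and 0.261. Ass1, argininosuccinate synthase of the urea cycle, had 3 ligated libraries at 4065, 4332 and 5572 CPM, above the sham range of 2626 to 3536 CPM, and library 3 at 1171 CPM (log2 0.25, interval -0.58 to 1.08, adjusted p = 0.658). In ligated library 3 the 9 listed unzoned hepatocyte markers summed to 56520 CPM, against 81020 to 106402 CPM in the other ligated wild-type libraries, and the macrophage markers to 1637 CPM against 829 to 1026 CPM. Their part in these values was not tested.

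Cdh1 encodes E-cadherin, which joins periportal hepatocytes and also bile duct cells to their neighbours. It was at 62.2, 67.3, 80.2 and 44.6 CPM in sham and 128, 98.0, 157 and 83.3 CPM in ligated libraries. All 4 ligated libraries lay above all 4 sham libraries, as they did for 17.8% of the genes tested, but the edgeR test shared with the other groups did not pass (log2 0.88 ± 0.35, adjusted p = 0.0726). It passed when only the wild-type groups were fitted (0.0173), without ligated knockout-label libraries 1 and 3 (0.00524), without ligated knockout-label library 3 (0.0169) and without the bad-fastq libraries (0.0316).

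**Figure D1:**
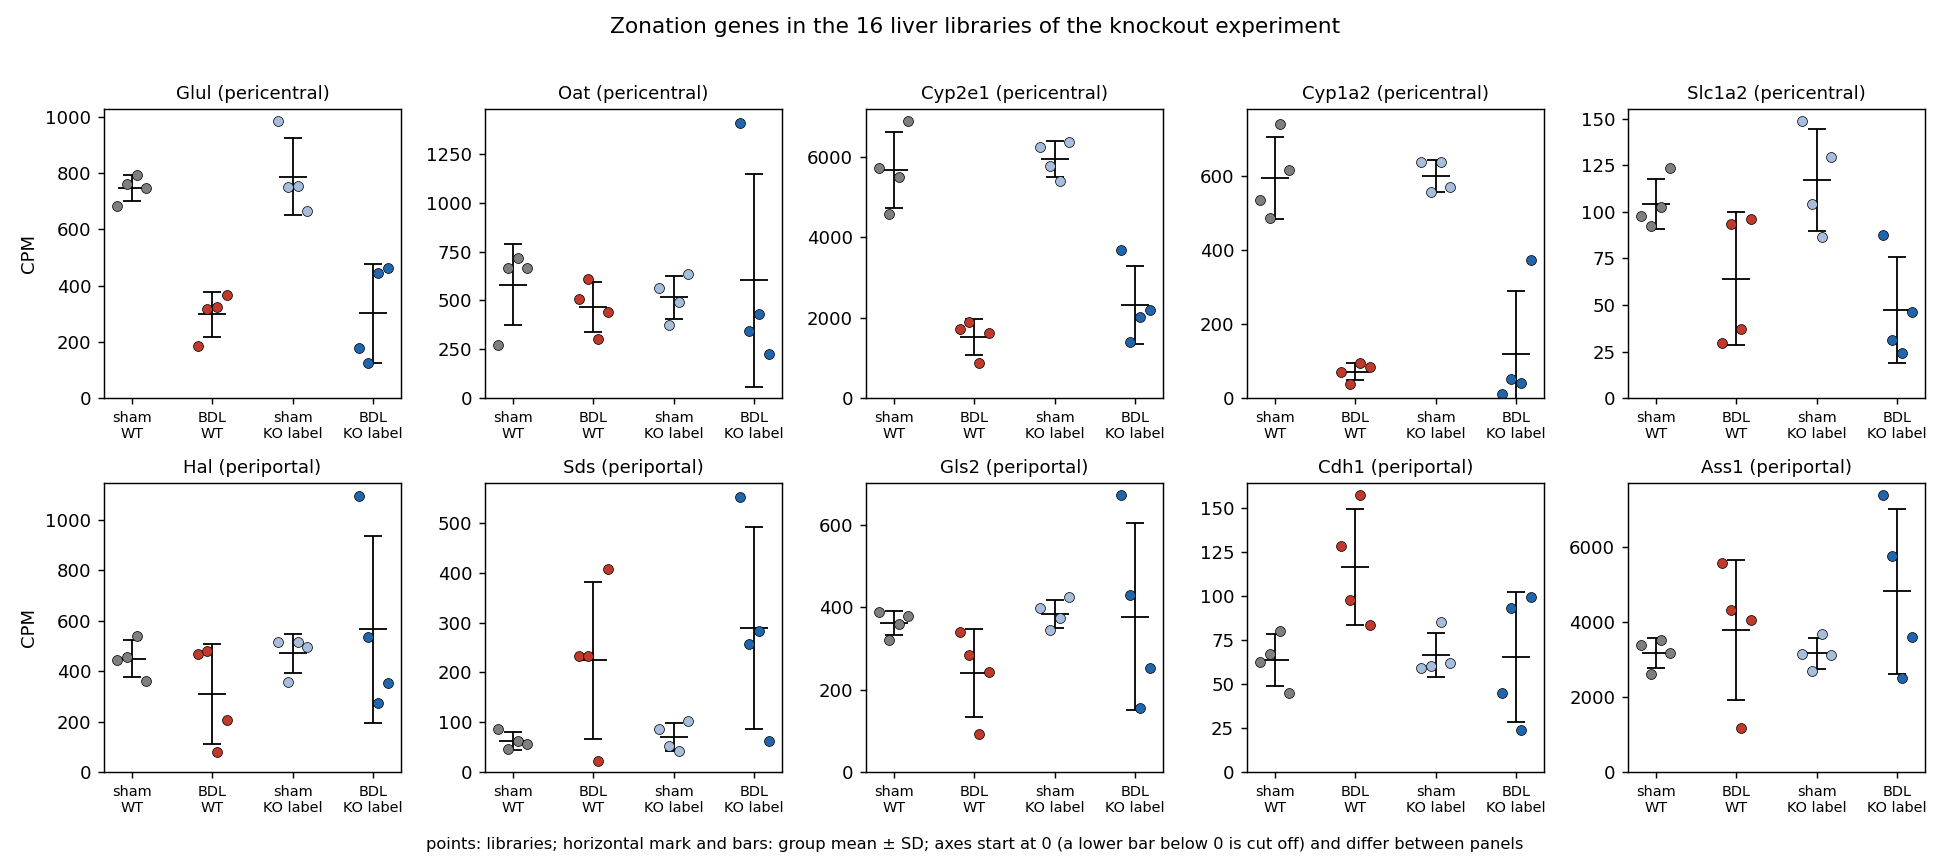
Level in CPM (vertical axis) of each gene in the 4 libraries of each group of the knockout experiment, with the group mean and SD, on axes that start at 0 and differ between panels. Glul, Cyp2e1 and Cyp1a2 separate ligated from sham liver under both genotype labels. Among the periportal genes only Cdh1 in wild-type liver does so, with all ligated libraries above sham.

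Under the knockout label, ligation lowered 4 of 5 pericentral genes. It lowered 0 of these 5 periportal genes but 5 of the 20 further ones. Glul, Cyp2e1, Cyp1a2 and Slc1a2 fell and Sds rose, where 11.2% of genes fell and 14% rose. For Glul, Cyp2e1 and Cyp1a2 the groups did not overlap, which held for 14.9% of genes in that direction. The median log2 change was -1.36 over the pericentral and 0.26 over the periportal genes, beside 0.07 over all genes tested.

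Glul was at 984, 750.3, 753 and 665 CPM in sham and 177, 125, 444 and 461 CPM in ligated libraries, with libraries 1 and 2 the lowest of the 16. It fell 2.61-fold (log2 -1.39 ± 0.35, edgeR adjusted p = 0.0111), and without ligated libraries 1 and 3 the change was -1.42 (adjusted p = 0.0283). The call was lost when only these 2 groups were fitted (0.0651) and without the bad-fastq libraries (0.0512). Slc1a2 was at 149, 104, 86.7 and 129.6 CPM in sham and 87.6, 31.03, 24.5 and 46.1 CPM in ligated libraries, with library 1 just inside the sham range. It fell 2.48-fold (log2 -1.31 ± 0.40, adjusted p = 0.0279, and -1.60 with 0.0215 without libraries 1 and 3). Leaving out ligated library 2 or 3, or sham library 1 or 4, raised that p to 0.0627, 0.0702, 0.0762 and 0.0634.

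Oat showed a wide spread in this group. Its sham values were 562, 376, 492 and 634 CPM, and ligated library 1 reached 1412 CPM while libraries 2 to 4 held 343, 432 and 227 CPM. The log2 change of 0.23 (interval -0.75 to 1.20) turned to -0.85 without libraries 1 and 3 (adjusted p = 0.74 and 0.140).

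Cyp2e1 fell 2.57-fold, from 6243, 5787, 5412 and 6377 CPM to 3696, 1391, 2009.8 and 2180.4 CPM (log2 -1.36 ± 0.30, edgeR adjusted p = 0.00565; -1.73 with 0.0028 without libraries 1 and 3). Cyp1a2 was at 637, 556, 636 and 568 CPM in sham and 11.3, 51.1, 40.7 and 371 CPM in ligated libraries. Library 1 held the least Cyp1a2 of all libraries and library 4 lay closest to the sham values. Its change was -2.34 ± 0.70 on the log2 scale (adjusted p = 0.0254), and -1.499 without libraries 1 and 3, no longer past the threshold (0.0761). The call was also lost without ligated library 2 (0.0553), ligated library 3 (0.0652), sham library 1 (0.0523) or the bad-fastq libraries (0.110), and with only these 2 groups fitted (0.106).

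Sds was at 85.8, 52.5, 42.7 and 103 CPM in sham and 553, 258, 284 and 61.8 CPM in ligated knockout-label libraries. Libraries 1 to 3 stood above the sham range and library 4 within it (log2 2.03 ± 0.66, edgeR adjusted p = 0.0349). Without libraries 1 and 3 the change was 1.17 and did not pass (0.289), nor without any 1 of the 4 sham knockout-label libraries (0.0537 to 0.0933), ligated library 1 (0.110) or ligated library 3 (0.0551). Hal reached 1093 CPM, Gls2 672 CPM and Ass1 7393 CPM in ligated library 1, each the highest of the 16 libraries. In ligated library 3 the same genes stood at 275, 156 and 2499.9 CPM, so this group spread in both directions. None of the 3 passed: the intervals of the log2 change ran from -0.73 to 1.26 for Hal, -0.85 to 0.79 for Gls2 and -0.23 to 1.44 for Ass1. Without libraries 1 and 3 the changes were -0.075 for Hal, -0.17 for Gls2 and 0.57 for Ass1, none past the threshold. Cdh1 was at 44.7, 93.2, 23.9 and 99.5 CPM against 58.9, 60.5, 85.3 and 61.8 CPM in sham (log2 -0.03, interval -0.77 to 0.71), and its change was 0.54 without libraries 1 and 3 (edgeR adjusted p = 0.172). The unzoned hepatocyte markers summed to 207192 and 196602 CPM in libraries 1 and 3, against 116409 and 129586 CPM in libraries 2 and 4, and the macrophage markers to 106 CPM in library 1. The hepatocyte sum includes the fibrinogen genes Fga and Fgb, which also respond to inflammation. These genes, named after their values were seen, reached 60005 and 55638 CPM in this group against at most 4841 and 4922 CPM in its shams, while Ttr, transthyretin, averaged 2725 CPM against 5935 CPM. Whether these differences bear on the zonation genes was not tested.

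In the inhibitor experiment, ligation lowered all 5 pericentral genes in DMSO-injected liver. It lowered 0 of these 5 periportal genes but 3 of the 20 further ones. Of 12986 genes tested with limma on log2(FPKM + 1), 7.92% fell and 5.47% rose. All 6 ligated columns lay below all 3 sham columns for the 5 pericentral genes and for Gls2, as for 9.4% of genes. The median log2 change was -2.03 over the pericentral and 0.42 over the periportal genes, beside -0.10 over all genes tested. Median-of-ratios scaling raised the median of all genes by 0.12 and turned the split of calls from 710 higher and 1028 lower to 929 and 789, and none of the 10 genes changed direction in this comparison under it. Fold changes on the log2(FPKM + 1) scale understate those of low genes, and ratios below are of mean FPKM.

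Glul was at 683, 538 and 964 FPKM in the sham DMSO columns, and in the 6 ligated DMSO columns it ran from 102 to 459.7 FPKM with a median of 174. The highest ligated column still lay under the lowest sham column (3.41-fold; log2 -1.96 ± 0.42, limma adjusted p = 0.00578). Oat, which had not passed in the knockout experiment, went from 290.3, 301 and 408 FPKM to 65.1 to 244 FPKM with a median of 85.1 (2.94-fold; log2 -1.69 ± 0.34, adjusted p = 0.00393). Slc1a2 went from 29.1, 30.5 and 37.2 FPKM to 4.05 to 16.5 FPKM with a median of 6.02 (4.11-fold; log2 -2.03 ± 0.32, adjusted p = 7.50e-04). In each of these 3 genes ligated column 3, counted from 0 as in the file, was the highest of the 6.

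Cyp2e1 went from 2466, 2644 and 3857 FPKM to 256 to 1112 FPKM with a median of 603 (4.69-fold; log2 -2.36 ± 0.38, limma adjusted p = 8.70e-04). Cyp1a2 went from 743, 771 and 644 FPKM to 33.3 to 300.3 FPKM with a median of 142 (4.67-fold; log2 -2.67 ± 0.54, adjusted p = 0.0044). The calls of all 5 pericentral genes held in each of the 16 fits that left out 1 column. Within the ligated DMSO group Cyp1a2 fell into 3 columns at 207 to 300.3 FPKM and 3 at 33.3 to 77.7 FPKM.

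Of the periportal genes, Sds was at 160.2, 90.5 and 81.1 FPKM in sham and 121 to 468 FPKM in ligated columns, with a median of 231. Of the 6 ligated columns 5 lay above every sham column, and the test came close to the threshold (log2 1.14 ± 0.40, limma adjusted p = 0.0665). It passed without ligated DMSO column 2 (0.0238), without ligated UNC569 column 2 (0.0442) and with median-of-ratios scaling (0.0464). Gls2 was nearly even in sham liver, at 198, 195 and 188 FPKM, and ran from 92.2 to 168 FPKM with a median of 131 in ligated columns. The groups did not overlap, but the difference did not pass (log2 -0.58, interval -1.04 to -0.13, adjusted p = 0.0822).

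Hal was at 90.9, 80.8 and 88.3 FPKM in sham and 33.9 to 100.1 FPKM in ligated columns, with a median of 65.7 (log2 -0.45, interval -1.01 to 0.12, limma adjusted p = 0.291). Ass1 was at 271, 228 and 225 FPKM in sham and 189.9 to 564 FPKM in ligated columns, with a median of 347 (log2 0.42, interval -0.27 to 1.10, adjusted p = 0.428). Both genes had ligated columns on either side of the sham values. Cdh1 was at 19.4, 17.03 and 15.3 FPKM in sham and 16.8 to 34.5 FPKM in ligated columns, with a median of 29.7. It rose by the main test (log2 0.65 ± 0.21, adjusted p = 0.0478), but 14 of 16 omissions lost the call, with adjusted p up to 0.181. Only the omissions of ligated DMSO columns 2 and 3 kept it.

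With UNC569, ligation lowered Glul, Cyp2e1 and Cyp1a2 and raised Sds, against 4.9% of genes lower and 3.66% higher. All 4 ligated columns lay below the 3 sham columns for the 5 pericentral genes and Cdh1, as for 13% of genes, and above them for Sds, as for 9.89%. The median log2 change was -1.69 over the pericentral and -0.03 over the periportal genes, beside -0.01 over all genes tested. This comparison shares no columns with the DMSO one.

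Glul was at 519.6, 526 and 673 FPKM in sham UNC569 and 68.8, 82.0, 145 and 132 FPKM in ligated UNC569 columns. This was the largest fall of Glul in the 4 injury comparisons (5.35-fold; log2 -2.47 ± 0.45, limma adjusted p = 0.00275). Oat was at 253, 251 and 313 FPKM in sham and 214, 209, 114 and 218 FPKM in ligated columns (log2 -0.56, interval -1.33 to 0.20, adjusted p = 0.381). Slc1a2 was at 23.2, 19.6 and 32.2 FPKM in sham and 10.9, 8.08, 15.9 and 17.1 FPKM in ligated columns (log2 -0.92, interval -1.65 to -0.19, adjusted p = 0.113). Both lay wholly below their sham columns without passing, and Slc1a2 passed without ligated DMSO column 3 (0.0434), which enters through the shared spread.

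Cyp2e1 was at 2032, 2298 and 3647 FPKM in sham and 717, 729.5, 660.5 and 1172 FPKM in ligated columns (3.24-fold; log2 -1.69 ± 0.41, limma adjusted p = 0.0169, and 0.101 without sham UNC569 column 2). Cyp1a2 was at 694, 602 and 599 FPKM in sham and 155, 137, 138 and 111 FPKM in ligated columns (4.66-fold; log2 -2.22 ± 0.58, adjusted p = 0.0253). Its ligated columns were close together, unlike those with DMSO. The Cyp1a2 call was lost without any 1 of the 3 sham UNC569 columns (0.0920, 0.0568 and 0.0845 for columns 0 to 2), without ligated UNC569 column 0, 1 or 3 (0.0520, 0.0589 and 0.0635) and with no filter on low values (0.0542).

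Sds had its clearest rise here. It was at 119, 116 and 63.7 FPKM in sham UNC569 and 585, 473, 218 and 482 FPKM in ligated UNC569 columns (4.40-fold; log2 2.09 ± 0.43, limma adjusted p = 0.00616), and the call held in all 16 omissions. Ass1 was at 319, 328 and 221 FPKM in sham and 702, 543, 260.1 and 622 FPKM in ligated columns, 3 of them above the sham range (log2 0.80, interval 0.06 to 1.55, adjusted p = 0.178, and 0.0321 without ligated UNC569 column 2). In that same ligated column 2 the neutrophil markers summed to 661 FPKM and the macrophage markers to 1209 FPKM, the highest of the 4. It was the lowest of the 4 for Sds, Hal, Ass1, Oat and Cyp2e1, but the highest for Glul (145 FPKM) and Gls2 (232 FPKM). Its unzoned hepatocyte sum, 53833 FPKM, was the highest of the 4 too. The part of neutrophils and macrophages in these values was not tested.

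Hal was at 105, 109.9 and 92.1 FPKM in sham and 115, 91.6, 67.5 and 135 FPKM in ligated UNC569 columns. Gls2 was at 202, 150.5 and 177 FPKM in sham and 159, 129, 232 and 180.5 FPKM in ligated columns. Their log2 changes of -0.04 (interval -0.65 to 0.56) and -0.03 (interval -0.52 to 0.46) were the smallest of the 10. Cdh1 was at 25.1, 18.3 and 18.4 FPKM in sham and 14.3, 16.5, 14.8 and 14.97 FPKM in ligated columns, the opposite direction to DMSO, and did not pass (log2 -0.41, interval -0.88 to 0.07, limma adjusted p = 0.301).

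**Figure D2:**
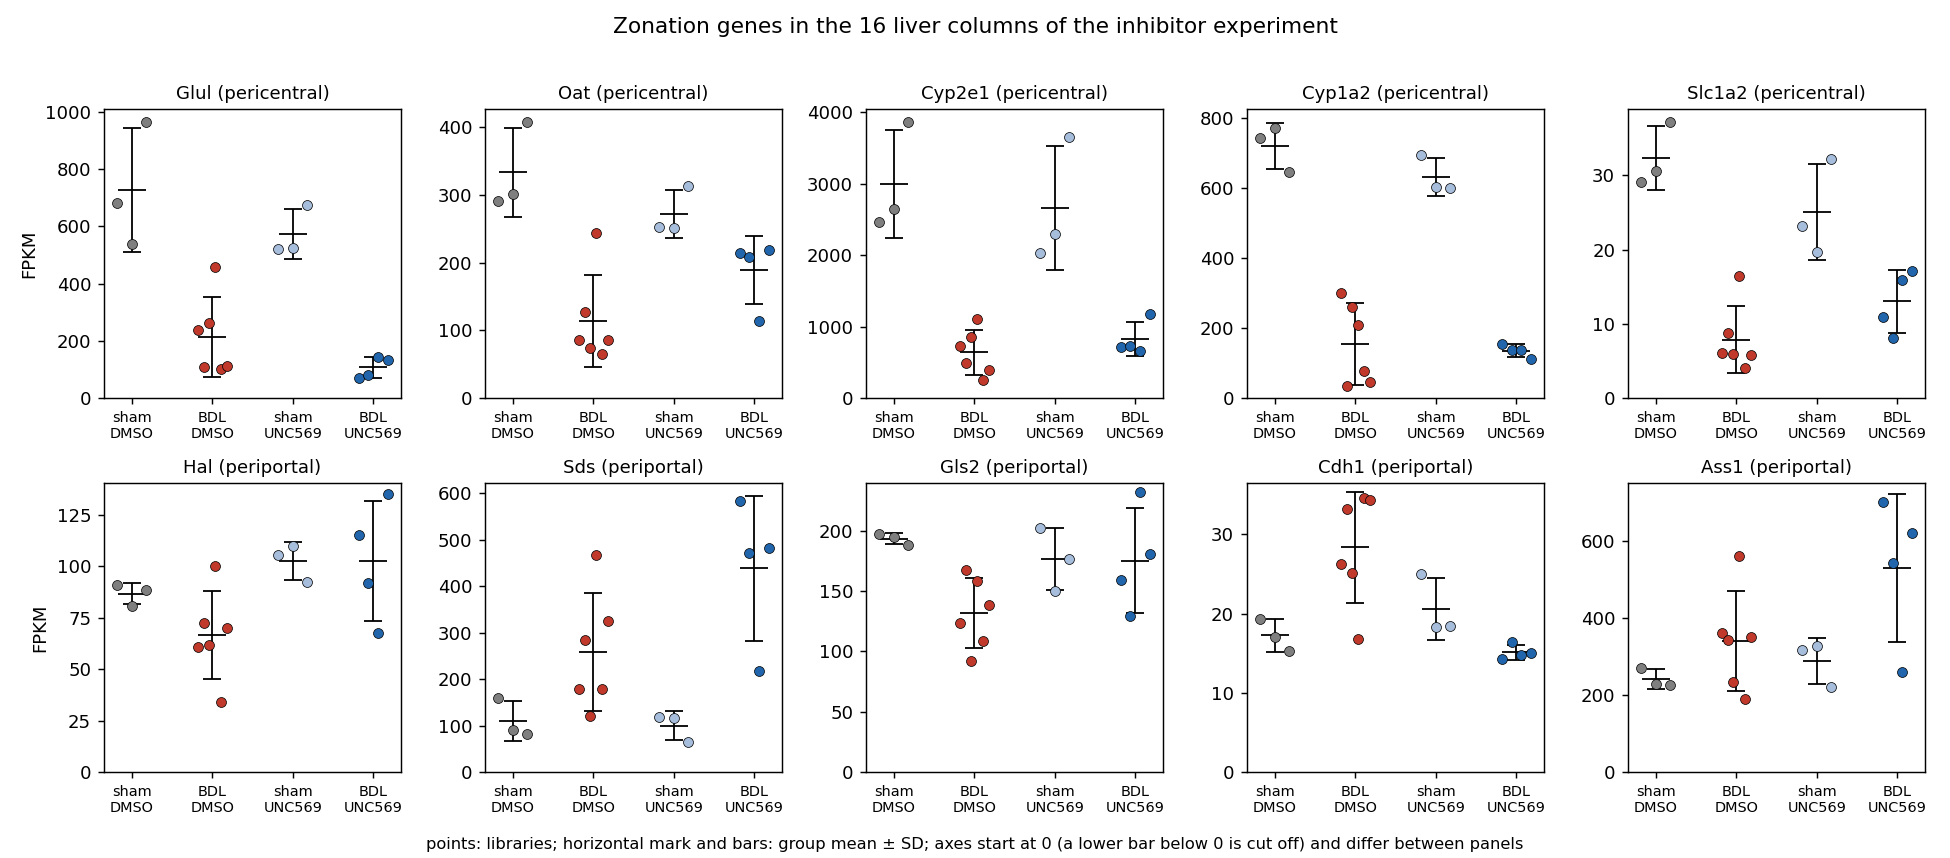
FPKM (vertical axis) of each gene in each column of the inhibitor experiment, with group mean and SD, on axes that start at 0. The pericentral genes lie lower in all ligated columns than in the sham columns of the same injection, while Sds and Ass1 reach above the sham range in most ligated columns.

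Across the 4 injury comparisons Glul, Cyp2e1 and Cyp1a2 fell in 4, Slc1a2 in 2 and Oat in 1, while Sds rose in 3 and Cdh1 in 1. In single comparisons 4.9% to 12.8% of all genes fell and 3.66% to 16.3% rose. Several of these calls were fragile. Of 16 omissions, 12 lost Sds in wild type, 14 lost Cdh1 with DMSO, and 6 lost Cyp1a2 and 1 lost Cyp2e1 with UNC569. Under the knockout label 6 lost Sds, 4 lost Slc1a2 and 3 lost Cyp1a2. The knockout-label call of Glul held in all 16, but was lost with only the groups compared and without the bad-fastq libraries. The knockout-label calls of Cyp1a2 and Sds were lost without ligated libraries 1 and 3. Hal, Gls2 and Ass1 passed in none. Oat passed in DMSO columns alone: its interval was -1.29 to 0.66 in wild-type count libraries and -2.40 to -0.98 in DMSO columns. The experiments were normalised separately and their difference was not tested.

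**Figure D3:**
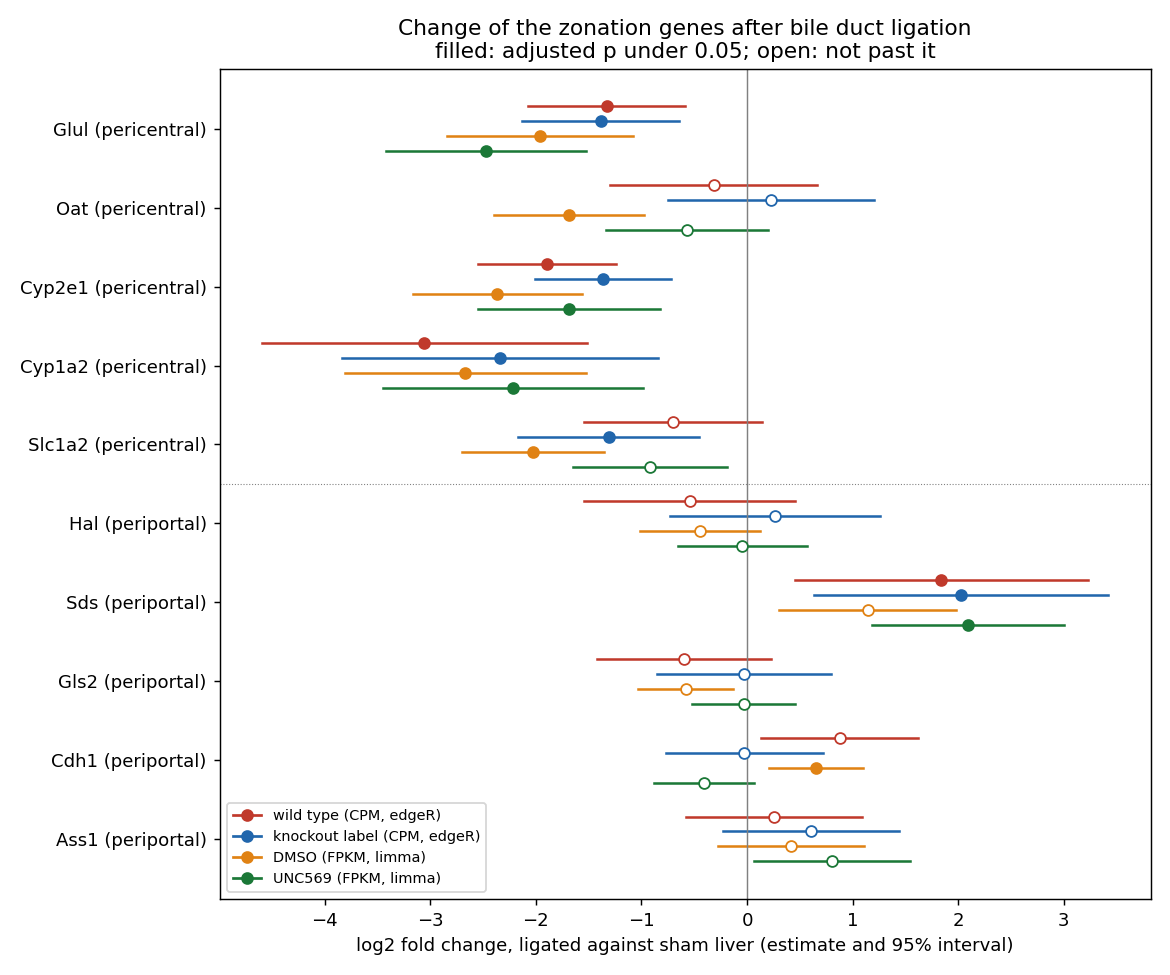
Log2 fold change of ligated against sham liver (horizontal axis, estimate with its 95% interval) for each gene in the 4 injury comparisons, filled where the adjusted p is under 0.05. The intervals of Glul, Cyp2e1 and Cyp1a2 lie left of 0 in all 4, from -4.59 at the lowest to -0.59 at the highest, and no filled point of a periportal gene lies left of 0.

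The 5 genes of each zone were also read in single libraries. For each library the log2 level of every gene was set against its mean in the matching sham group, and the median was taken over the 5 genes of a zone. The pericentral median was below 0 in 18 of 18 ligated libraries and the periportal median was above 0 in 11 of them. The pericentral median was below the periportal one in all 18, by 0.03 in ligated wild-type library 3 and by 0.79 to 3.25 in the other 17. Sham libraries differed by -0.31 to 0.39, but each is part of its own reference mean, which pulls these values toward 0. Ligated wild-type library 3 was the exception: its periportal median, -1.46, was as low as its pericentral median, -1.49. In the DMSO columns the periportal median stayed between -0.35 and 0.59 while the pericentral one ran from -2.996 to -0.97. Medians of 5 chosen genes do not show what the whole zone did. The median log2 change of 20 further periportal genes was -0.50 in wild type and -0.18 under the knockout label. It was -0.42 with DMSO and -0.14 with UNC569. For the further pericentral genes these medians were -0.88, -1.001, -0.78 and -0.89.

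**Figure D4:**
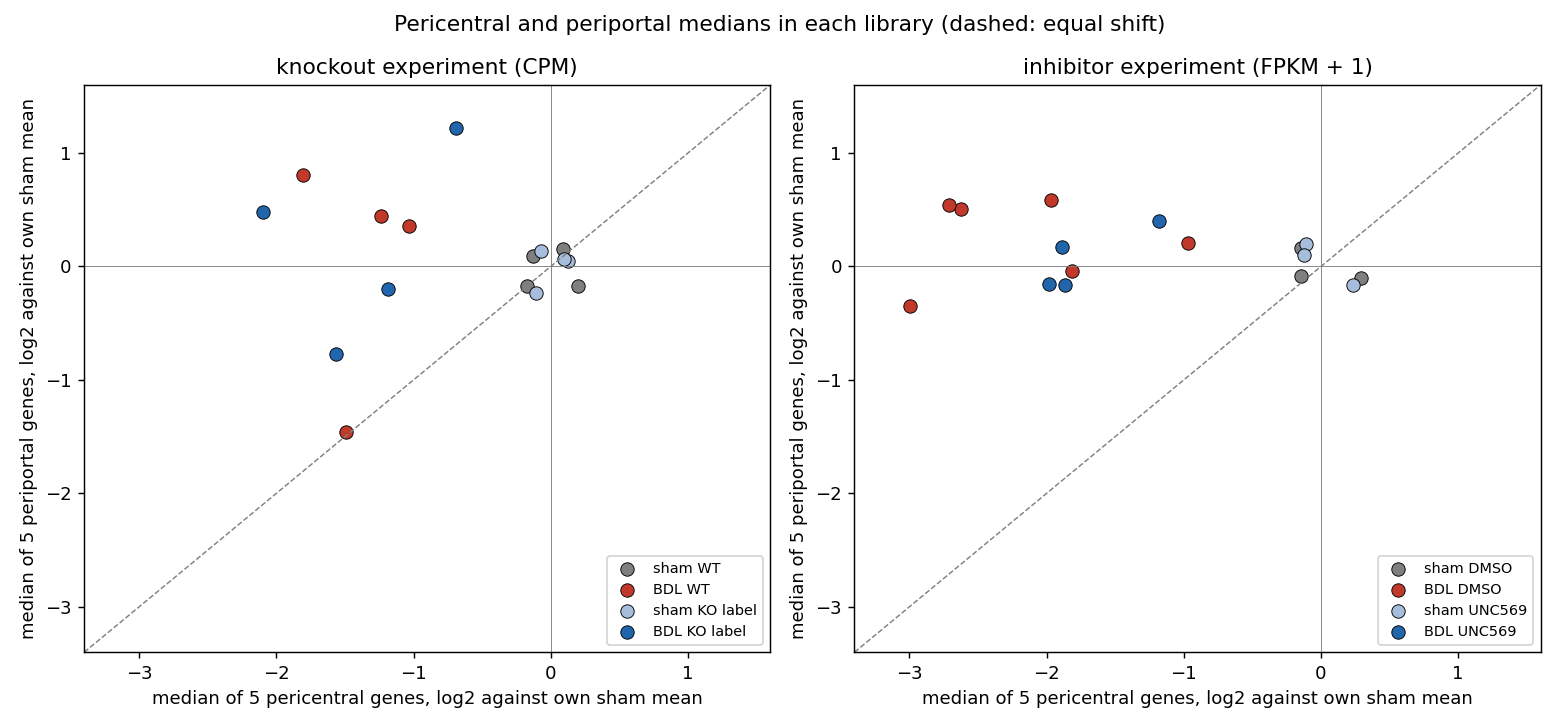
Median log2 level of the 5 pericentral genes (horizontal axis) and of the 5 periportal genes (vertical axis) against the mean of the matching sham group, 1 point per library. All 18 ligated libraries lie above the dashed line of equal shift, ligated wild-type library 3 almost on it.

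The ratio of Glul to Gls2, enzymes that make and break glutamine, was taken within each library from CPM or FPKM. It was 1.76 to 2.38 in sham wild-type and 1.57 to 2.48 in sham knockout-label libraries. In ligated liver it was 0.54, 1.11 and 1.51 in wild-type libraries 1, 2 and 4 and 3.54 in library 3, and under the knockout label 0.264 and 0.291 in libraries 1 and 2 and 2.85 and 1.83 in libraries 3 and 4. In FPKM it was 2.76 to 5.12 in sham DMSO and 0.643 to 2.90 in ligated DMSO columns, and 2.57 to 3.81 in sham UNC569 and 0.432 to 0.734 in ligated UNC569 columns. Only the UNC569 groups did not overlap with their shams in this ratio.

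No difference between the genotype labels passed for the 10 genes. In ligated liver 0 of 10 passed with edgeR, where 4.39% of genes did, 1 had an unadjusted p under 0.05 (Cdh1), as did 3601 of the 13492 genes, and DESeq2 also passed 0. Ligated libraries of both labels enter here and in the injury comparisons. The intervals of the log2 difference, knockout label against wild type, were wide: -0.71 to 0.75 for Glul, -0.03 to 1.24 for Cyp2e1, -0.70 to 2.17 for Cyp1a2, -1.28 to 0.40 for Slc1a2 and -0.60 to 1.35 for Oat. They ran from -0.13 to 1.87 for Hal, -0.98 to 1.71 for Sds, -0.17 to 1.48 for Gls2, -1.58 to -0.09 for Cdh1 and -0.48 to 1.18 for Ass1. Without ligated knockout-label libraries 1 and 3, again 0 of 10 passed: Cdh1 went from -0.84 to -0.26, Cyp2e1 from 0.60 to 0.24, Oat from 0.37 to -0.69, Sds from 0.37 to -0.47, Slc1a2 from -0.44 to -0.71, Hal from 0.87 to 0.55 and Cyp1a2 from 0.73 to 1.59. Glul, Gls2 and Ass1 were then at 0.0011, 0.52 and 0.33. In sham liver 0 of 10 passed, with log2 differences from -0.17 to 0.18, where 0% of genes passed with edgeR or DESeq2 and 70 had an unadjusted p under 0.05. The injury response itself differed by label for 0 of the 10 (0% of all genes with edgeR, 1952 at an unadjusted p under 0.05, 136 past with DESeq2). The differences ran from -0.90 for Cdh1 to 0.81 for Hal, and from -0.88 for Slc1a2 to 1.57 for Cyp1a2 without libraries 1 and 3.

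UNC569 in ligated liver likewise passed for 0 of 10 genes, beside 0.316% of genes tested with limma, although 7 of the 10 had an unadjusted p under 0.05, as did 1454 of the 12986 genes. These were Glul (log2 -0.82, interval -1.62 to -0.02) and Cdh1 (-0.83, -1.23 to -0.42), which were lower, and Oat (0.84, 0.20 to 1.49), Slc1a2 (0.73, 0.12 to 1.35), Hal (0.64, 0.12 to 1.15), Sds (0.81, 0.05 to 1.58) and Ass1 (0.63, 0.00 to 1.26), which were higher. Their adjusted p ran from 0.0904 for Cdh1 to 0.442 for Ass1. Cdh1 was the 1 gene whose ligated groups did not overlap, with UNC569 columns of 14.3 to 16.5 FPKM under DMSO columns of 16.8 to 34.5 FPKM, which held for 0.978% of genes in that direction. Without ligated DMSO column 3 Cdh1 passed (0.0155), as did Oat (0.0425). The median difference over all tested genes was 0.09, and of the genes past the threshold 16 were higher and 25 lower, or 10 and 26 with median-of-ratios scaling.

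In sham liver UNC569 passed for 0 of 10 genes (0% of genes tested with limma, 241 at an unadjusted p under 0.05), with log2 differences from -0.38 for Slc1a2 to 0.24. The difference between the injury responses with and without UNC569 passed for 0 of 10 as well, and for 0% of all genes, of which 610 had an unadjusted p under 0.05. Among the 10 genes 3 did: Oat (1.12, interval 0.08 to 2.17), Slc1a2 (1.11, 0.12 to 2.10) and Cdh1 (-1.06, -1.71 to -0.41). Their adjusted p was 0.832 for Cdh1 and 0.999 for the other two.

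A further 26 pericentral and 20 periportal genes were read beside the 10. In wild-type liver 9 of the 25 tested pericentral genes fell and 3 rose, and 4 of 20 periportal genes fell and 3 rose. Under the knockout label the counts were 9 and 2 of 25, and 5 and 4 of 20. With DMSO they were 11 and 1 of 26, and 3 and 1 of 20. With UNC569 they were 8 and 2 of 26, and 5 and 3 of 20. Over all genes tested, 12.8% fell and 16.3% rose in wild type, 11.2% and 14% under the knockout label, 7.92% and 5.47% with DMSO, and 4.9% and 3.66% with UNC569. The periportal risers in wild type were thus near the background share. Without ligated knockout-label libraries 1 and 3, the number past the threshold under the knockout label went from 11 to 9 pericentral and from 9 to 6 periportal genes. All genes past it went from 3392 to 2142. In wild type the lists went from 12 to 18 and from 7 to 14, and all genes from 3927 to 5951, so the lists moved the same way as all genes. The median log2 change of the pericentral list was -0.88, -1.001, -0.78 and -0.89 in that order, and that of the periportal list -0.50, -0.18, -0.42 and -0.14. No gene of either list passed between genotype labels or between injections in ligated liver.

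Among those pericentral genes Cyp2c29, a P450, fell from 908 to 135 CPM in wild-type liver (log2 -2.75 ± 0.45) and from 732 to 128 FPKM with DMSO (-2.78 ± 0.45). Tbx3, a Wnt target transcription factor, fell from 35.7 to 10.2 CPM in wild type and from 35.9 to 8.22 CPM under the knockout label. Por, the reductase that serves all microsomal P450 enzymes, went the other way, from 273 to 756 CPM in wild type (log2 1.47 ± 0.53, edgeR adjusted p = 0.0488) and from 96.4 to 398 FPKM with UNC569 (log2 2.01 ± 0.36, limma adjusted p = 0.00264). Ahr, the receptor that drives Cyp1a2 transcription in response to ligands, rose from 31.7 to 78.2 CPM in wild type while Cyp1a2 fell.

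The periportal list did not move as a block. Mfsd2a, a lysophospholipid transporter, rose in all 4 injury comparisons, from 24.2 to 175 CPM in wild type and from 4.59 to 55.9 FPKM with DMSO (log2 2.85 ± 0.88 and 3.07 ± 0.60). The urea cycle enzymes Asl and Arg1 rose under the knockout label, from 458 to 2092 CPM and from 1004 to 3332 CPM, and with UNC569. Otc, a urea cycle enzyme of the mitochondria, fell in the same comparisons and with DMSO. It went from 494 to 131 CPM under the knockout label, from 72.9 to 23.3 FPKM with UNC569 and from 75.8 to 27.2 FPKM with DMSO. The knockout-label values include ligated libraries 1 and 3, and library 1 had the highest sum of this list, 33635 CPM. Cyp2f2, a periportal P450, fell in all 4, from 917 to 167 CPM in wild type (log2 -2.46 ± 0.36) and from 403 to 154 FPKM with DMSO (-1.52 ± 0.39). Igfals, which carries insulin-like growth factors in blood, fell from 128 to 31.4 CPM in wild type and from 111 to 39.4 FPKM with DMSO.

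Of 10 cholangiocyte markers 8 rose with ligation in wild type and 3 under the knockout label. Of 9 tested in FPKM 6 rose with DMSO and 1 with UNC569. Over all genes tested 16.3%, 14%, 5.47% and 3.66% rose in that order. Compared directly in ligated liver, 1 of the 10 was lower under the knockout label, beside 1.72% of all genes tested. Between injections 0 of the 9 passed, beside 0.316% of all genes. The label comparison passed for 592 genes in all, but for 0 with only the groups compared and 4 without ligated knockout-label libraries 1 and 3. The difference of the injury response passed for 0 of these markers, by label or by injection. Of 8 endothelial markers 0 passed in wild type, under the knockout label or with UNC569. With DMSO 1 fell, as did 7.92% of all genes tested. The 10 cholangiocyte markers summed to 28.7 to 44.4 CPM in sham, 103 to 192 CPM in ligated wild-type and 39.6 to 84.6 CPM in ligated knockout-label libraries. In FPKM the sums were 11.4 to 15.8 in sham, 19.2 to 100.04 in ligated DMSO and 16.8 to 21.2 in ligated UNC569 columns. Bile duct cells express Cdh1 too. In ligated DMSO liver the 3 columns with Cdh1 at 33.1 to 34.5 FPKM had sums of 52.6 to 100.04 FPKM, and those with 26.2, 25.1 and 16.8 FPKM had 28.04, 19.2 and 31.2 FPKM. In ligated knockout-label liver library 3 had 23.9 CPM of Cdh1 at a sum of 80.3 CPM, and library 4 had 99.5 CPM at 39.9 CPM, so the 2 values did not go together in every library. Krt19, a bile duct keratin, averaged 1.46 CPM in sham and 18.3 CPM in ligated wild-type liver, and Epcam, a bile duct surface protein, 1.71 and 18.6 CPM. The share of Cdh1 reads that came from bile duct cells was not tested.

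Macrophage markers summed to 201.5 to 289.5 CPM in sham, 829 to 1637 CPM in ligated wild-type and 106 to 1046 CPM in ligated knockout-label libraries. In FPKM the macrophage sums were 205 to 627 in sham, 694 to 1655 in ligated DMSO and 367 to 1209 in ligated UNC569 columns, the last overlapping with sham. Col1a1, a collagen of scar-forming cells, averaged 15.8 CPM in sham and 228 CPM in ligated wild-type liver. Of the 10 stellate and fibroblast markers 5 rose in wild type, 3 under the knockout label and 2 with DMSO, where 1 fell. With UNC569 0 passed. Over all genes tested 16.3%, 14%, 5.47% and 3.66% rose in that order. Compared directly in ligated liver, 2 of the 10 were lower under the knockout label, beside 1.72% of all genes tested. Between injections 0 passed, beside 0.316% of all genes. The difference of the injury response passed for 0 of the 10, by label or by injection. The unzoned hepatocyte sum, Fga and Fgb included, was 103474 to 120735 CPM in sham wild type and 56520 to 106402 CPM after ligation. Under the knockout label it went the other way, from 107074 to 113111 CPM in sham to 116409 to 207192 CPM. With DMSO the ranges overlapped, at 32090 to 40748 FPKM in sham and 31586 to 44781 FPKM after ligation. In ligated UNC569 columns it was 49661 to 53833 FPKM, above the 35646 to 40327 FPKM of their shams. The part of hepatocyte content in the pericentral changes was not tested.

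**Figure D5:**
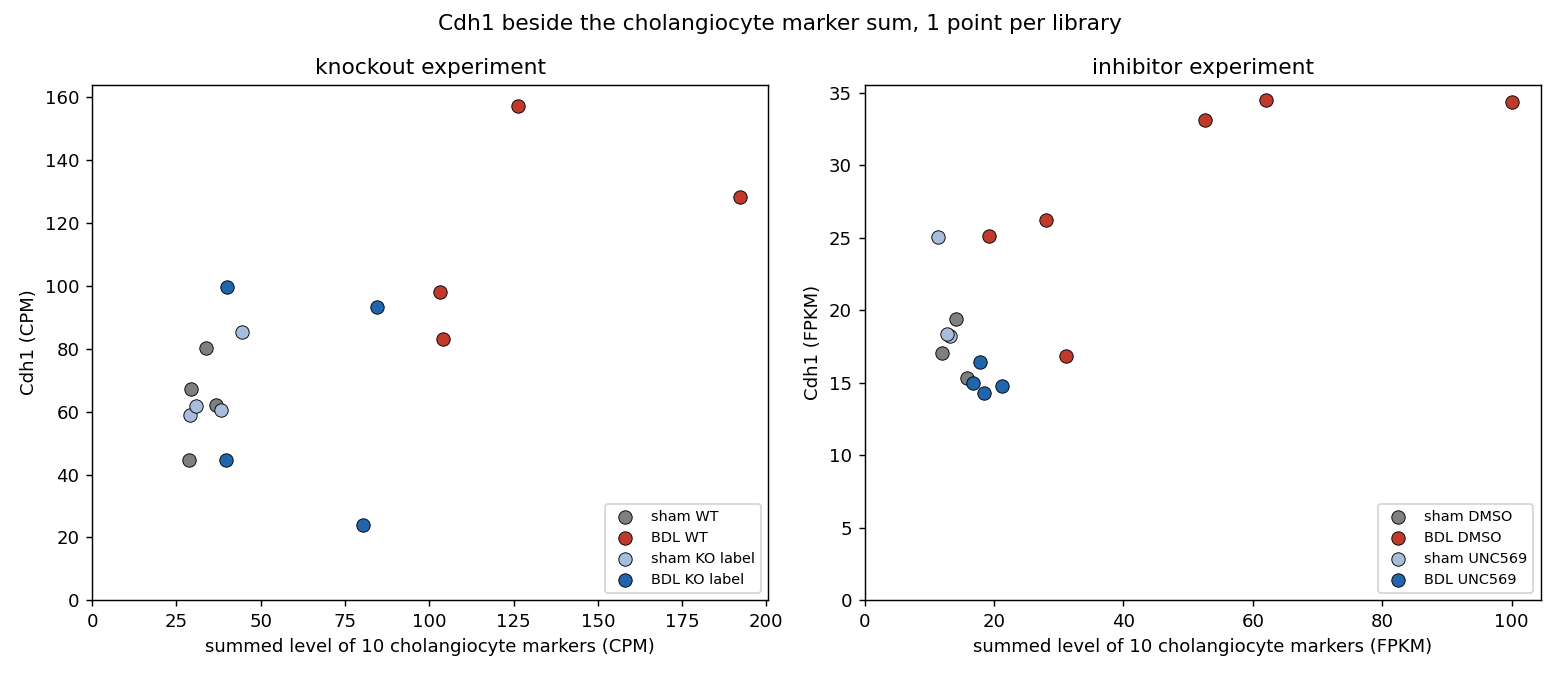
Cdh1 (vertical axis) against the summed level of 10 cholangiocyte markers (horizontal axis), in CPM for the knockout and FPKM for the inhibitor experiment, 1 point per library. The ligated wild-type libraries have the 4 highest sums in CPM at 83.3 to 157 CPM of Cdh1, but ligated knockout-label library 4 holds 99.5 CPM of Cdh1 at a sum of 39.9 CPM, and the 4 ligated UNC569 columns hold 14.3 to 16.5 FPKM of Cdh1 at sums of 16.8 to 21.2 FPKM.

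Within a zone the genes did not all vary together. Over the 16 count libraries, as a description in which the libraries share their groups, Spearman's rho was 0.88 between Glul and Cyp1a2, 0.73 between Glul and Cyp2e1 and 0.21 between Glul and Oat. Among the periportal genes it was 0.78 between Hal and Gls2 and 0.21 between Sds and Gls2. Over the 16 FPKM columns Oat had 0.97 against Slc1a2, 0.89 against Cyp2e1, 0.74 against Glul and 0.70 against Cyp1a2. Against the periportal genes it had 0.66 with Gls2, 0.60 with Hal, -0.18 with Ass1, -0.43 with Cdh1 and -0.51 with Sds. Glul and Sds ran opposite in both experiments, at -0.60 in CPM and -0.82 in FPKM. Within the 6 ligated DMSO columns alone, Cyp2e1 and Cdh1 had exactly opposite ranks (rho -1, n = 6). There Oat had 0.83 with Slc1a2, 0.49 with Cyp2e1, 0.43 with Glul and -0.31 with Cyp1a2. With the periportal genes it had 0.94 for Hal, 0.89 for Gls2, 0.77 for Sds and Ass1 and -0.49 for Cdh1.

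Of 7831 genes with a mean of at least 10 CPM, those most like Glul over the 16 count libraries were Adtrp (rho 0.94), Mup11 (0.93) and Mup16 (0.92). The last are major urinary protein genes with near-identical copies, so their counts are uncertain. Those most like Gls2 were Ddrgk1 (0.92), Serpina1b (0.91), which also has near-identical copies, and Kcnn2 (0.90).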

How the data were processed

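Whole-liver RNA was extracted with a Qiagen kit and sequenced from TruSeq RNA v2 libraries, which do not mark strand, as 100-base reads, per the labels' protocols. The submitters' processing notes name FastQC, Trim Galore, STAR and edgeR, with mm10 and hg38 as builds. For the knockout experiment the authors deposited STAR read counts per gene, of which the unstranded column was used; 20.9 to 29.3% of reads were not in genes and were left out. For the inhibitor experiment the deposited table holds FPKM, whose tool is not given in the sources used here, and its columns name groups but no sample.

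Counts were tested with edgeR 4.0.16 (R 4.3.3; filterByExpr, TMM, quasi-likelihood) over 13492 genes, with 4 groups in 1 fit. The FPKM values were put on a log2 scale after adding 1 and fitted in limma 3.58.1 with its intensity trend, over 12986 genes with at least 1 FPKM in at least 3 columns. Benjamini-Hochberg adjustment ran over all genes tested and the threshold was 0.05; intervals are 95%. Genes named beyond the 10 were, per comparison, list and direction, up to 4 with the smallest p past the threshold, the defining cell type markers, Mertk, and the 3 genes most like Glul and Gls2. Some results that this rule names are not reported here. The 10 genes and all lists were chosen with earlier results of these data known. Alternatives were DESeq2 1.42.0, other scaling, filters, pseudocount (0.1) and trend, only the groups compared, a replicate block, omission of each library, of libraries with bad fastq files, and, added after seeing the data, of ligated knockout-label libraries 1 and 3. The tests were checked on simulated data.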

Additional observations from a re-analysis of the deposited data

Results flagged for a closer look

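In 7 of 60 groups of 4 to 6 libraries, 1 library of a zonation gene lay far from the others of its group, where chance alone gives about 1 in 20 groups. In the count libraries these were Oat at 270.2 CPM in sham wild-type library 1, below the rest, Cyp1a2 at 371 CPM in ligated knockout-label library 4, above them, Hal at 355 CPM in sham knockout-label library 2, below, and Cdh1 at 85.3 CPM in sham knockout-label library 3, above. In the FPKM columns they were Oat at 244 FPKM in ligated DMSO column 3, above, Oat at 114 FPKM in ligated UNC569 column 2, below, and Cyp2e1 at 1172 FPKM in ligated UNC569 column 3, above. Oat accounts for 3 of the 7.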

How the results depend on the processing

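Of 1736 recomputed values of the 10 genes, 1618 kept direction and side of the threshold, 59 lost and 11 gained a call, and 48 changed sign. In wild-type liver 3927 genes passed, 5951 without ligated knockout-label libraries 1 and 3; omitting 1 library gave 2852 to 5094 genes and 3 to 5 of the 10. Under the knockout label 3392 genes and 5 of the 10 passed. With only the groups compared these were 1730 and 3, without libraries 1 and 3 they were 2142 and 3, without the bad-fastq libraries 1724 and 2, and over single omissions 2101 to 4399 and 2 to 5. Between labels in ligated liver 592 genes passed, against 1883 with DESeq2, 322 with no filter, 0 with only the groups compared, 4 without libraries 1 and 3, 0 without the bad-fastq libraries and 0 to 1921 over omissions. With the replicate block it was 239, the Glul difference turned to -0.056, and the wild-type Sds call was lost; no other call of the 10 genes changed. Replicate numbers did not pair the libraries (correlations of deviations -0.33 to 0.27), and no paired analysis was possible for the FPKM columns because they carry no sample number. The response difference by label passed for 136 genes with DESeq2 and 0 to 44 over omissions. With DMSO 1738 genes passed, 1155 with only the groups compared and 730 to 2257 over omissions (5 to 7 of the 10); with UNC569 the omissions gave 471 to 1405 genes and 2 to 5 of the 10. Between injections in ligated liver 41 genes passed, 1 with no filter, 0 with only the groups compared, 15 with a pseudocount of 0.1 and 0 to 143 over omissions (0 to 2 of the 10); with no filter 2 genes passed in sham liver and 1 for the response difference. Signs changed without libraries 1 and 3 (and without the bad-fastq libraries) for the knockout-label response of Oat, -0.85 (-0.85), Hal, -0.075 (-0.072), and Cdh1, 0.54 (0.54); for the ligated label difference of Oat, -0.69 (-0.70), Sds, -0.47 (-0.47), and, without the bad-fastq libraries alone, Glul, -0.0032; and for the response difference of Oat, -0.52 (-0.83), and Sds, -0.65 (-0.57). Median-of-ratios scaling turned Gls2 with UNC569 to 0.011. Single omissions spanned 0 for the knockout-label response of Oat (-0.63 to 0.49), Hal (-0.27 to 0.49), Gls2 (-0.46 to 0.23) and Cdh1 (-0.32 to 0.26); the ligated label difference of Glul (-0.25 to 0.28), Oat (-0.49 to 0.64), Cyp1a2 (-1.05 to 1.11) and Sds (-0.16 to 0.83); the response difference by label of Glul (-0.33 to 0.21), Oat (-0.31 to 0.81), Cyp1a2 (-1.06 to 1.10) and Sds (-0.33 to 0.65); UNC569 injury in Hal (-0.19 to 0.14) and Gls2 (-0.18 to 0.10); and UNC569 against DMSO in Cyp1a2 (-0.083 to 0.54). The cause of these changes was not tested, and depth is unknown for FPKM.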
